A study of Danio rerio with 6 samples.

Results

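Small GTPases and the vesicle trafficking machinery around them were followed in the olfactory rosettes of adult zebrafish (Danio rerio), the pair of folded organs in the nose where odours are sensed. The members were all array probes whose annotated gene symbol begins with the name of a small GTPase (Rab, Arf, Arl, Rac, Cdc42, Rap, Ral and Ran among them), of a SNARE or its disassembly factor, of a coat or other Sec protein, or of a sorting nexin or Vps protein. By this rule 99 probes of 88 genes belonged to the set, of 5905 probes of 5353 genes with 1 accepted symbol and of 16227 gene probes in all. The rule used names only, so it also took in partners of GTPases such as cdc42se1 and rap1gapa, and some proteins outside vesicle transport, among them the nuclear transport GTPase ran and the ER protein channel subunits sec61a1a and sec61a1b.

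The series compares 3 rosette samples from wild-type siblings with 3 from fish homozygous for a Rag1 mutation. Rag1 cuts DNA to join the gene segments of antibodies and T cell receptors, and the comparison addresses how rosette transcripts stand in fish that carry the mutation. All fish were untreated, of both sexes and 1 to 2 years old, and RNA labelled by in vitro transcription was hybridised in 1 colour, with 1 array per sample. The sources used here state neither how many fish went into a sample nor what the Rag1 mutation is. Nor do they say that samples came from separate fish, so the p-values cover the spread among these arrays, and that spread may be technical. For mutant array 2 a source field reads wild type, while the title and the strain field give the mutant, and the array was kept with the mutants.

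Small GTPases are molecular switches that bind membranes and recruit effectors while GTP is bound, and are turned off when the GTP is hydrolysed. Rab proteins give each compartment its identity, Arf proteins and coats bud vesicles, sorting nexins and retromer return cargo from endosomes, and SNAREs fuse membranes, while Rac and Cdc42 steer actin. In the olfactory organ the same machinery serves odorant receptor delivery to cilia, synaptic release by sensory neurons, barrier upkeep by epithelial cells, and phagocytosis and degranulation by leukocytes.

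All values are normalized brightness on the log2 scale, in which a difference of 1 is 2-fold, and differences are mutant minus wild type with a standard error (SE) and n = 3 arrays per group. Gene spots had a median raw brightness 4.75 to 7.21 times that of blank spots on the same array, and 96.7% to 99.52% of gene probes lay above the blank threshold of each array. A print block of 400 spots was misread by 1 row on wild-type array 2 and was left out, which took 4 members with it. The other 95 members, of 85 genes, lay above the blank threshold on all 6 arrays and none of the 99 was saturated. In 7 of the 95 the lowest reading was less than 1 log2 unit above the threshold, and the differences of these dim probes may be understated (rhoab, stx5a, vps36, snx10a, cdc42ep2, arl3l1 and spot 4859 of snx14). Over all probes, arrays of 1 group correlated at 0.981 to 0.988, and arrays of different groups at 0.963 to 0.973. The probe of the mutated gene, rag1, read 6.46, 6.71 and 6.64 in wild type and 6.68, 6.75 and 11.92 in the mutants, so mutant array 3 stood apart. Where this probe lies relative to the mutation is not stated, so it checks no label, and values without mutant array 3 are given for each called member.

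Of the 95 member probes, 4 passed limma's test at an adjusted p of 0.05, or 4.21%, beside 4.78% of all 15616 probes tested. The GTPase gene rab5aa fell, and rhogb, rhobtb2b and 1 probe of snx7 rose. In each direction the share was close to the background as well: 3 members rose where 2.43% of all probes did, and 1 fell where 2.36% did. Groups did not overlap in 19 members (20%), against 25.8% of all probes. The median difference over the members was 0.01 and over all probes 0.01. These shares lie near the background, so the counts give no result particular to the trafficking genes. No class by role held more than 1 call, so the counts within classes give no result about a class either.

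Most differences of the members were small, as were those of all probes tested. In 84 of 95 members (88.4%) the 95% interval of the difference stayed inside 2-fold in both directions, as it did for 84.8% of all probes, and these intervals are not adjusted for the number of probes. The size of the difference was under 0.5 in 86 members (90.5%) and in 84.2% of all probes, and its median was 0.15 and 0.19. At an unadjusted p under 0.05 there were 15 members (15.8%), beside 21% of all probes. Taken after centring each probe, the median member stood at -0.045 to 0.03 on the arrays of wild type and at 0.00 to 0.05 on those of the mutants, and these ranges overlapped.

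**Figure D1:**
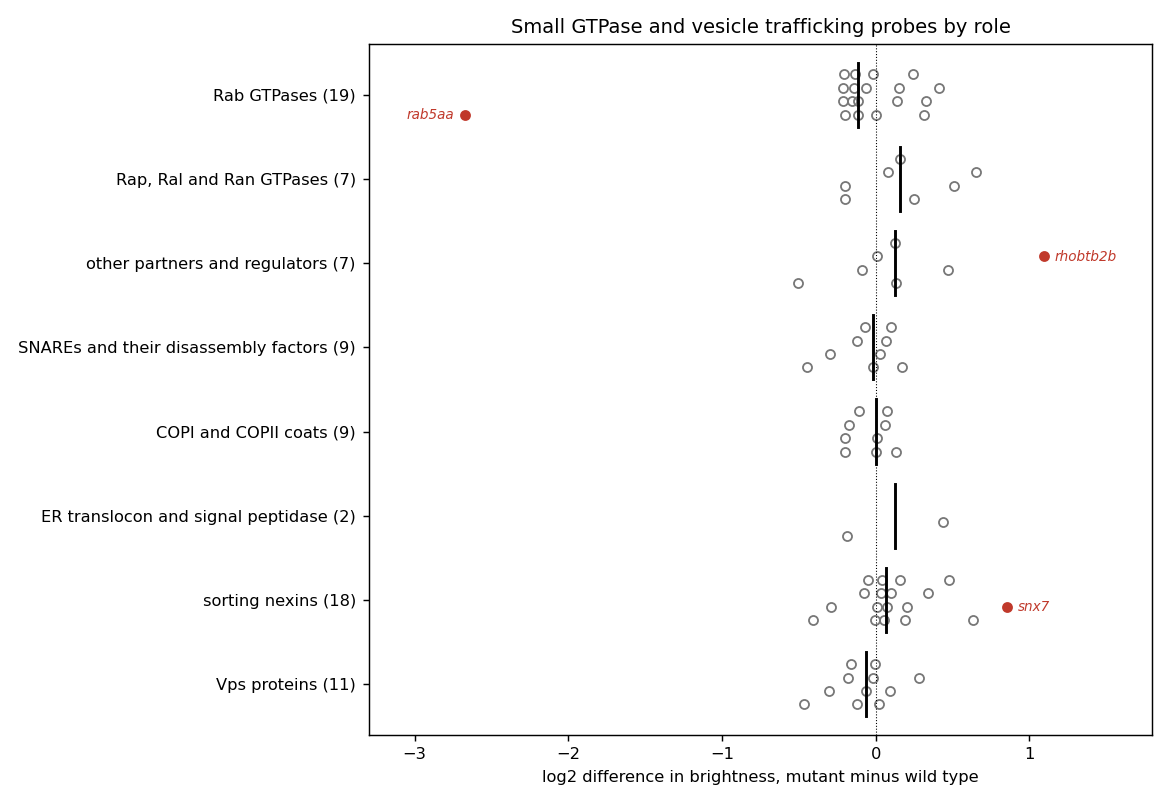
Log2 difference in normalized brightness (mutant minus wild type, horizontal axis) for the member probes of 8 classes, grouped by role with the number of probes in parentheses. Filled red points passed limma's adjusted p of 0.05 and black bars are group medians. The group medians lie between -0.114 and 0.155, and rab5aa at -2.68 is the only member beyond 2-fold on the low side.

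**Figure D2:**
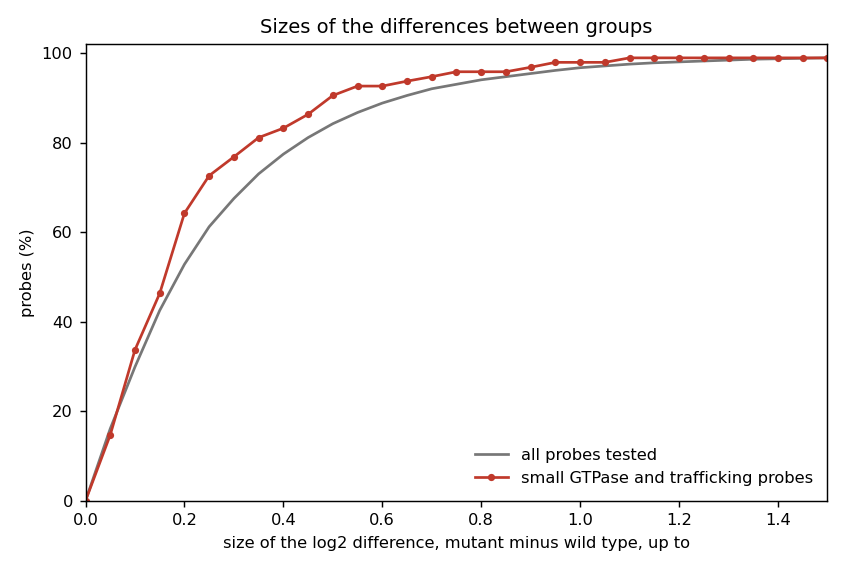
Share of probes (vertical axis, %) whose log2 difference between groups is no larger than the size on the horizontal axis, for the 95 members and for all 15616 probes tested. At a size of 0.5 the curves stand at 90.5% of members and 84.2% of all probes.

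Rab GTPases mark membrane compartments, and 19 of their 21 probes gave values. Of these 1 fell and none rose, where 2.36% and 2.43% of all 15616 probes tested did, and the median difference was -0.11. The probe that fell was rab5aa (spot 5645), one of the zebrafish genes for Rab5, the GTPase of early endosomes that drives their fusion and the uptake of cargo from the plasma membrane. It read 10.53, 10.58 and 11.12 on the wild-type arrays, in the order of their numbers, and 9.06, 7.67 and 7.47 on the mutant arrays. Every mutant array lay below every wild-type array, with mutant array 1 highest among the mutants and a wider spread in that group. Means were 10.74 ± 0.33 and 8.07 ± 0.86 (SD, n = 3 each), a 6.39-fold lower level in the mutants (-2.68, SE 0.40, 95% interval -3.62 to -1.73, limma adjusted p = 0.0144). The call ended without wild-type array 3 (-2.47, limma adjusted p = 0.0569) and without mutant array 3 (-2.39, limma adjusted p = 0.0502), and held without any of the other arrays. In bulk RNA of this kind, fewer cells of a type and less RNA per cell cannot be told apart. Of 10 markers of olfactory sensory neurons measured, sypa and sypb among them, all were also below 0, gap43 barely (-0.005), and 4 fell. Their summed linear brightness was 98730 to 107300 in wild type and 57680 to 71350 in the mutants. Most of each sum came from the bright gng13b (-0.69) and sncb (-0.55), both called. Of 7 T cell markers measured, from a list of 12, zap70 (-2.06) and trac (-1.10) fell, none rose and 3 were above 0. Among the latter was the mutated gene rag1 itself (1.85, SE 1.27), which owed most of its difference to mutant array 3. Of 5 genes measured from a B cell list of 9, igl1c1 (-2.04) fell. On the same list syk (1.41) and lyn (1.21) rose, and neither is expressed by B cells alone. The part of neuron, T cell and B cell markers in the result was not tested.

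The other Rab5 genes did not share this size of difference. Zebrafish carry a second copy, rab5ab, whose probe read 11.85, 12.10 and 12.32 in wild type and 11.32, 12.10 and 12.22 in the mutants. The groups overlapped, with a difference of -0.21 (SE 0.25, 95% interval -0.80 to 0.38, limma adjusted p = 0.719). A further gene of the family, rab5c, had 2 probes, named here after their values were seen. Spot 15671 read 12.60, 12.55 and 12.65 in wild type and 12.89, 12.93 and 12.97 in the mutants, a narrow separation without overlap (0.33, SE 0.11, limma adjusted p = 0.149). Spot 14992 had a difference of 0.41 (SE 0.17, limma adjusted p = 0.221) with overlapping groups. Within each array, the rab5aa reading relative to rab5ab differed by a mean of -2.46 (mutant minus wild type), and relative to rab5c spots 15671 and 14992 by -3.001 and -3.086. These differences had an exact permutation p of 0.1 each (2-sided, 3 arrays against 3), the smallest this design allows, and 0.1 after Benjamini-Hochberg adjustment over 5 pairs of related probes compared. The pairs were chosen after the values were seen, each a called probe with an uncalled one of its family. A difference was thus built into the choice, and the test cannot decide whether related probes differ. Whether a Rab5 probe also binds transcripts of its relatives was not tested.

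The remaining Rab probes lay between -0.22 and 0.31. They covered ER to Golgi transport (rab1ab and rab1bb), the Golgi (rab6a), traffic between endosomes and the Golgi (rab14), fast recycling (rab4b, rab35b), the recycling endosome (rab11ba and its epithelial relative rab25a), junction traffic (rab13), integrin uptake (rab21), rab28, rab40c and rab41. The recycling GTPase rab11ba read 14.62, 14.77 and 14.64 in wild type and 14.71, 14.48 and 14.66 in the mutants. Its groups overlapped and its interval was narrow (-0.06, SE 0.13, 95% interval -0.35 to 0.23, limma adjusted p = 0.852). Both probes of rab14 were near 0 (-0.14 and 0.00), as were both of rab40c (-0.21 and -0.15).

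The readings of rab5aa and its relatives lie beside those of the other called members in the plot of single arrays.

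**Figure D3:**
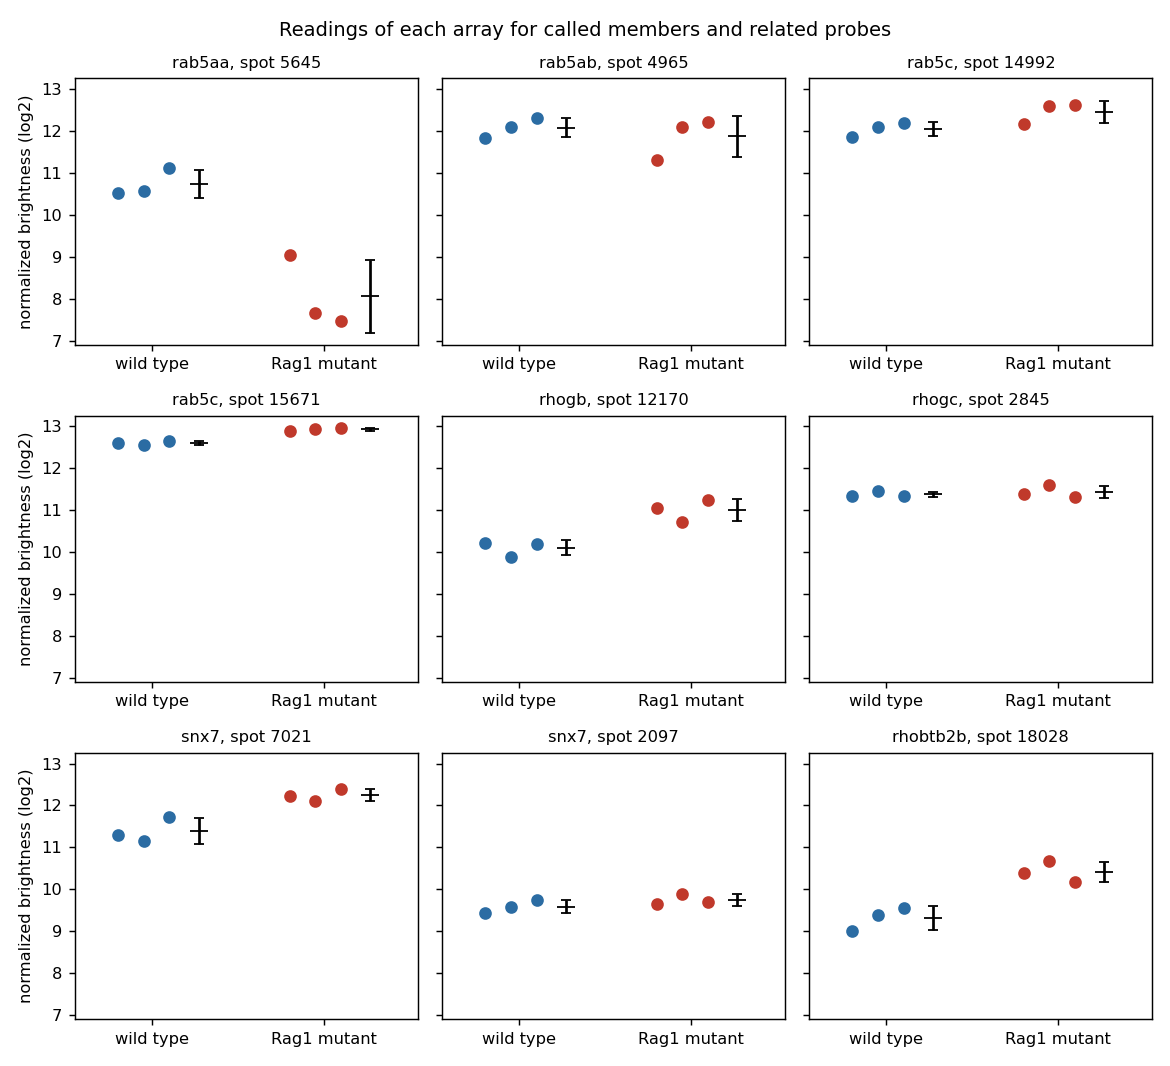
Normalized brightness (log2, vertical axis) of each wild-type array (blue) and each mutant array (red) for the 4 called probes and for probes of related genes, with the group mean and SD (bars) beside the points, n = 3 per group. The mutant points of rab5aa lie at 9.06, 7.67 and 7.47, below all wild-type points, while those of rab5ab overlap with wild type.

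Arf and Arl GTPases recruit coats, tethers and ciliary cargo, and 3 probes represented them. None passed the test, where 4.78% of all 15616 probes tested did.

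Among the GTPases that organise actin, 1 probe passed the test and rose, where 2.43% of all 15616 probes tested rose. It was rhogb (spot 12170), a zebrafish gene for RhoG, which in mammals drives membrane ruffling, macropinocytosis and phagocytosis through ELMO and DOCK proteins. It read 10.23, 9.90 and 10.19 in wild type and 11.05, 10.73 and 11.24 in the mutants, without overlap. Means were 10.11 ± 0.18 and 11.01 ± 0.26 (SD, n = 3 each), a 1.87-fold higher level in the mutants (0.90, SE 0.17, 95% interval 0.50 to 1.30, limma adjusted p = 0.031). The call rested on the full set of arrays: it remained without mutant array 2 (limma adjusted p = 0.0325) and ended without any other array (limma adjusted p 0.0516 to 0.104, differences 0.79 to 0.97, the lowest without mutant array 3). Macrophage markers moved with it: 6 of the 6 measured, from a list of 17, were higher in the mutants. Of these 5 were called, and all 6 were above the blank threshold everywhere. Their summed linear brightness was 18950 to 26530 in wild type and 37610 to 52290 in the mutants. Most of each sum came from lgmn, the 1 marker of these not called (0.97, limma adjusted p = 0.0573). The 6 neutrophil markers measured, from a list of 13, were also all higher, 4 of them called, with sums of 6047 to 8102 and 13420 to 35240. Red cell markers had sums of 15610 to 21060 in wild type and 26430 to 67500 in the mutants, with 1 called of 5 measured from a list of 11. The called marker was the dimmer cahz. These sums came mainly from the haemoglobin genes hbaa1 and hbba1, which were not called (limma adjusted p = 0.0554 and 0.117). All of these sums were higher in the mutants, as were rhogb, rhobtb2b and the called snx7 probe, and their part in those results was not tested. The lists of surface epithelium (9 measured), skeletal muscle (9), glia (3) and motile ciliated cells (2) held no called marker.

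A second RhoG gene, rhogc, gave 11.34, 11.45 and 11.35 in wild type and 11.39, 11.59 and 11.32 in the mutants. These readings overlapped (0.05, SE 0.13, 95% interval -0.24 to 0.35, limma adjusted p = 0.87). The reading of rhogb relative to rhogc within an array was higher in the mutants by a mean of 0.85. The exact permutation p was 0.1, the smallest possible here, and 0.1 adjusted over the 5 pairs. This pair was also chosen as a called with an uncalled probe, so its p decides nothing. The lamellipodial GTPase rac1a read 14.60, 14.48 and 14.46 and 15.09, 14.82 and 14.75, again without overlap but with a small difference (0.38, SE 0.14, limma adjusted p = 0.166). RhoA genes, which build stress fibres, were at -0.10 for rhoaa (SE 0.19, limma adjusted p = 0.833) and -0.16 for the dim probe of rhoab (SE 0.11, limma adjusted p = 0.501). rhoac, rhoca, the polarity GTPase gene cdc42l, rac3a and rac3b lay between -0.15 and 0.36.

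Rap, Ral and Ran GTPases had 7 probes and no call, where 4.78% of all 15616 probes tested were called. Rap1 activates integrins and cell junctions, and rap1b had the largest difference of this class. It read 12.67, 12.59 and 12.47 in wild type and 13.59, 13.29 and 12.82 in the mutants, all of them higher than any wild-type array, for a difference of 0.65 (SE 0.20, 95% interval 0.19 to 1.12, limma adjusted p = 0.115). Ral GTPases act through the exocyst, a vesicle tether, and ralbb read 8.97, 7.997 and 8.80 and 9.01, 9.01 and 9.27. Here wild-type array 2 was low, and the difference of 0.51 (SE 0.25) did not pass (limma adjusted p = 0.303), falling to 0.22 without that array. rap1aa, rap1ab, rap2c, ralab and ran were between -0.20 and 0.25.

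Among the 7 partners and regulators that share a GTPase's name, 1 rose and none fell, where 2.43% of all 15616 probes tested rose. It was rhobtb2b (spot 18028), whose mammalian counterpart RHOBTB2 couples a GTPase-like domain to domains that recruit a Cullin-3 ubiquitin ligase. It read 9.01, 9.39 and 9.56 in wild type and 10.38, 10.67 and 10.19 in the mutants. The mutant arrays all lay higher, from a mean of 9.32 ± 0.29 to 10.41 ± 0.24 (SD, n = 3 each), or 2.13-fold (1.09, SE 0.19, 95% interval 0.65 to 1.54, limma adjusted p = 0.0241). Without mutant array 3 it was 1.21 (limma adjusted p = 0.0471). Leaving out wild-type array 2 (1.12, limma adjusted p = 0.0706), mutant array 1 (1.11, 0.08) or mutant array 2 (0.96, 0.0603) ended the call. The Cdc42 effector cdc42se1 read 11.83, 11.79 and 11.91 in wild type, and 12.22 and 12.72 on mutant arrays 1 and 3. Mutant array 2 lay between these and wild type, so the groups did not overlap (0.47, SE 0.19, limma adjusted p = 0.213), and the difference was 0.27 without mutant array 3. The Rap1 inhibitor rap1gapa was at -0.50 with overlapping groups (limma adjusted p = 0.258), and arl6ip5a, cdc42ep2, cdc42ep4a and the Rab regulator rab3gap2 lay between -0.09 and 0.13.

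SNAREs fuse vesicles with their targets. Of 9 probes measured, the disassembly factor napab included, none passed the test, where 4.78% of all 15616 probes tested did. The class median was -0.02. The smallest p in this class belonged to sec22a, a relative of the ER to Golgi SNARE Sec22b, which read 10.12, 10.27 and 9.96 in wild type and 9.79, 9.59 and 9.61 in the mutants. The mutant arrays were lower without overlap (-0.45, SE 0.14, 95% interval -0.77 to -0.13, limma adjusted p = 0.108). stx3b, a zebrafish gene for syntaxin 3, which in mammals serves exocytosis at the apical membrane and at ribbon synapses, read 10.53, 10.86 and 10.64 and 10.56, 10.91 and 10.63. These overlapped closely (0.02, SE 0.15, 95% interval -0.33 to 0.38, limma adjusted p = 0.958). For vamp8, which in mammals fuses late endosomes and secretory granules, including those of leukocytes and glands, the probe outside the misread block read 12.82, 12.28 and 12.31 and 12.54, 12.15 and 12.50 (-0.07, SE 0.19, 95% interval -0.51 to 0.37, limma adjusted p = 0.887). The Golgi and endosome SNAREs stx5a, stx6, vamp4 and sec22bb, with vamp5 and napab, lay between -0.30 and 0.17.

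Coats of the early secretory pathway had no call in 9 probes, where 4.78% of all probes tested were called. Their differences ran from -0.20 to 0.13. COPI subunits, which coat vesicles at the Golgi, were copz2, cope, copz1 and copg2, and COPII subunits, which coat vesicles leaving the ER, were sec23a, sec23b, sec24a and sec24c. copz2 read 7.66, 7.69 and 7.74 in wild type and 7.64, 7.43 and 7.43 in the mutants, lower without overlap by a small amount (-0.20, SE 0.12, limma adjusted p = 0.423). All 9 intervals stayed inside 2-fold, as did those of 84.8% of all probes tested. Both probes of the ER channel subunit Sec61 alpha also stayed inside it: sec61a1b read 10.49, 10.95 and 10.65 and 10.90, 11.14 and 11.38, with overlap (0.44, SE 0.18, limma adjusted p = 0.211), while sec61a1a was at -0.19.

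Sorting nexins bind endosomal membranes and return cargo from them. Of 18 probes for 12 genes 1 rose and none fell, with 13 differences above 0 and a median of 0.07. Some genes are counted here with several probes. Over all 15616 probes tested, 8059 differences were above 0 and 2.43% rose. The nexin probe that rose was spot 7021 of snx7, which encodes a sorting nexin of the membrane-bending BAR type. The readings were 11.29, 11.15 and 11.73 in wild type and 12.22, 12.11 and 12.39 in the mutants, without overlap. Means were 11.39 ± 0.31 and 12.24 ± 0.14 (SD, n = 3 each), a 1.81-fold higher level in the mutants (0.85, SE 0.18, 95% interval 0.44 to 1.27, limma adjusted p = 0.0411). The other snx7 probe, spot 2097, was also above 0, but by less and without a call. It read 9.43, 9.58 and 9.76 and 9.65, 9.90 and 9.69, with overlap (0.15, SE 0.14, 95% interval -0.17 to 0.48, limma adjusted p = 0.609). Within an array the reading of the called probe relative to the other was higher in the mutants by 0.70. The exact permutation p was 0.1, the smallest possible, and 0.1 adjusted. The pair was chosen because 1 probe was called and the other not, so this p decides nothing. Which transcript form each probe detects is not given in the sources used here. The call of snx7 rests on 1 of 2 probes. Spot 7021 remained called without wild-type array 3 (limma adjusted p = 0.0316). It lost the call without any other array (limma adjusted p 0.0717 to 0.126, with 0.78 and 0.126 without mutant array 3), without background correction (0.0518), and with the misread block kept (0.0529).

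The genes snx1a, snx5 and snx6 encode BAR nexins that work with retromer on the way from endosomes to the Golgi. snx1a read 12.30, 12.24 and 12.90 in wild type and 13.26, 12.93 and 13.14 in the mutants. Every mutant array lay higher, though mutant array 2 did so by little (0.63, SE 0.20, 95% interval 0.16 to 1.101, limma adjusted p = 0.124). snx5 read 12.09, 12.44 and 12.31 and 12.50, 12.73 and 13.03, again without overlap (0.48, SE 0.17, limma adjusted p = 0.166), and snx6 was at 0.04. The other nexins, among them the endocytic snx9b, the recycling adaptor snx17, and snx4, snx10a, snx12, snx14, snx15 and snx29, lay between -0.41 and 0.34. The 4 probes of snx12 ranged from -0.29 to 0.19, the lowest of them with 1 low reading, 9.20 on mutant array 1 against 12.08 and 11.76 on the other mutant arrays.

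Vps proteins build retromer, the ESCRT complexes, and the tethers of endosomes and lysosomes. None of the 11 probes measured passed the test, where 4.78% of all 15616 probes tested did. The largest difference was that of vps33a, a subunit of the HOPS tether that fuses vesicles with lysosomes. It read 10.49, 10.52 and 10.83 in wild type and 10.10, 10.22 and 10.11 in the mutants. The mutant arrays were lower without overlap (-0.47, SE 0.14, 95% interval -0.79 to -0.15, limma adjusted p = 0.102). The retromer subunits vps35 (-0.00, 95% interval -0.29 to 0.28) and vps26a (0.02, -0.52 to 0.55) were near 0. The ESCRT genes vps28, vps36 and vps37a, the Golgi tether genes vps51, vps52 and vps53, and vps13a and vps9d1 lay between -0.30 and 0.28.

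The misread block held 4 members: rab18a, rab18b, the second probe of vamp8, and vps26b. When the readings of wild-type array 2 in this block were moved back by 1 row, vps26b, a subunit of retromer, read 8.35, 8.75 and 8.46 in wild type and 7.29, 7.62 and 7.54 in the mutants. All mutant arrays were lower, by 2.05-fold (-1.03, SE 0.16, 95% interval -1.40 to -0.67, limma adjusted p = 0.0147). On the 5 arrays read at their own position the groups did not overlap either. With the block as deposited, its difference was -2.195 and did not pass (limma adjusted p = 0.2685). The second vamp8 probe was at -0.17 (SE 0.21, limma adjusted p = 0.731), close to the -0.07 of the first. The lipid droplet and ER GTPase genes rab18a and rab18b were at 0.13 and -0.12, and neither passed.

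Of the 9 member genes with several probes, vamp8 included, the 8 with all probes measured in the comparison had gaps between their probes of 0.02 (snx4) to 0.70 (snx7). The gap was under 0.3 in rab14, rab40c, rab5c, sec23a, snx14 and snx4, and it was 0.48 in snx12.

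Other genes of the trafficking pathway, chosen by name as regulators, coats, tethers, exocytic proteins and effectors, were counted with the brightest probe of each gene. Of 139 such genes 3 rose and 7 fell, 7.19%, where 4.78% of all probes were called. The second share counts every probe, dim or repeated and with or without a symbol, so the shares are not like for like. The 10 calls became 3 without mutant array 1 or mutant array 3, 4 without wild-type array 2 or wild-type array 3, and 7 without either other array. Regulators of GTPases had 54 genes with 3 falling: elmo2, which joins DOCK proteins in activating Rac downstream of RhoG (-0.91, SE 0.20, limma adjusted p = 0.0468), dennd6b, of a family of Rab activators (-0.76, SE 0.14, 0.0306), and tbc1d14, of a family of Rab inhibitors (-0.60, SE 0.13, 0.049). Clathrin, its adaptors and dynamin had 22 genes, and only bin1b, which encodes a membrane-bending amphiphysin, rose: it read 7.10, 7.15 and 7.04 in wild type and 8.39, 8.25 and 8.26 in the mutants (1.203, SE 0.12, limma adjusted p = 0.00374). Its wild-type readings lay less than 1 log2 unit above the blank threshold, so this difference may be understated. Among 23 tethers and cargo receptors, tmed8 fell by 1.03 (SE 0.14, limma adjusted p = 0.0102).

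Regulated exocytosis was the list with the lowest median. Of its 16 genes 15 lay below 0, the median was -0.33, and 3 (18.8%) fell. Of all 15616 probes tested, 7557 lay below 0 and 2.36% fell. The 3 genes were cplx2a, a clamp of synaptic SNAREs (-1.26, SE 0.23, limma adjusted p = 0.0287), the synaptic vesicle gene sypa (-1.08, SE 0.20, 0.0291) and the synaptotagmin gene syt11a. The last read 10.74, 11.45 and 11.44 in wild type and 10.02, 10.22 and 10.06 in the mutants, without overlap (-1.11, SE 0.21, limma adjusted p = 0.0297). The neuron markers whose sums are given beside rab5aa moved with this list as well, and sypa and sypb are on both lists. All 10 lay above the blank threshold on every array, and the other 13 neuron markers of the list were not measured here. Effector kinases and actin regulators had 24 genes with a median of 0.24. The macrophage and neutrophil markers whose sums are given beside rhogb were higher in the mutants as well, ncf1 is on both this list and the neutrophil list, and their part in the result was not tested. There arpc5b, a subunit of the actin-branching Arp2/3 complex, rose (0.79, SE 0.17, limma adjusted p = 0.0468), and so did pak1ip1 (1.03, SE 0.14, 0.00994), whose product binds PAK1 but is better known for ribosome assembly. The medians of these lists are descriptions and were not tested, and the lists were chosen with results of these data known.

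**Figure D4:**
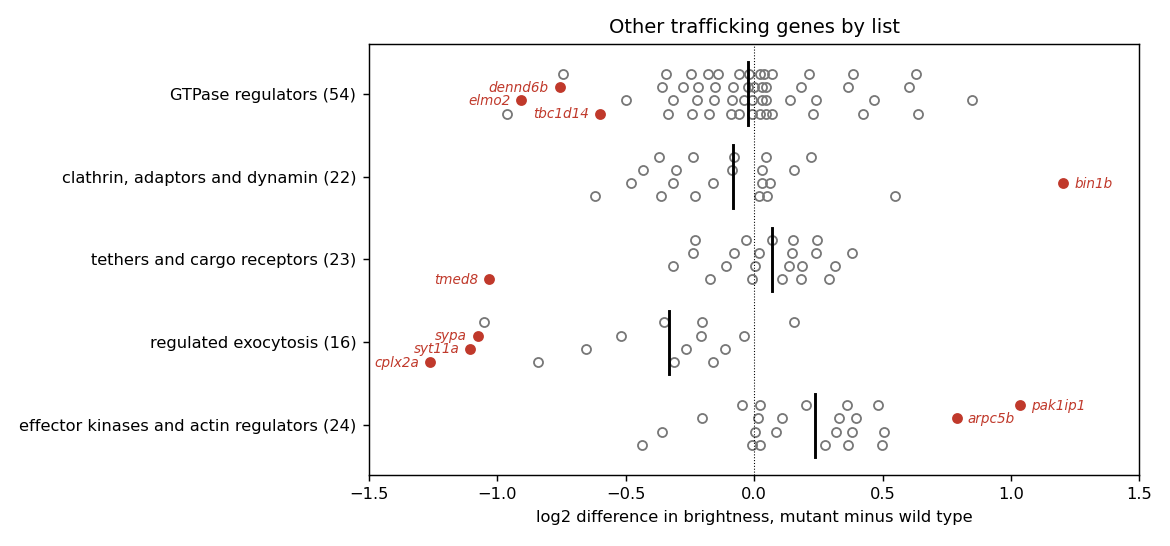
Log2 difference in normalized brightness (mutant minus wild type, horizontal axis) of 139 other trafficking genes in 5 lists, with the number of genes in parentheses. Filled red points passed limma's adjusted p of 0.05 and black bars are list medians, which run from -0.33 for regulated exocytosis to 0.24 for effector kinases and actin regulators.

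Of the 4 called members, none kept its call in all 6 comparisons that left out 1 array. rab5aa kept it in 4, rhobtb2b in 3, and rhogb and snx7 in 1 each. Directions were the same throughout, with differences of -3.18 to -2.39 for rab5aa, 0.94 to 1.21 for rhobtb2b, 0.79 to 1.04 for rhogb and 0.73 to 1.02 for snx7. Over these comparisons the count of called members was 1 without wild-type array 2, mutant array 1 or mutant array 3, and 2 without any of the others.

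**Figure D5:**
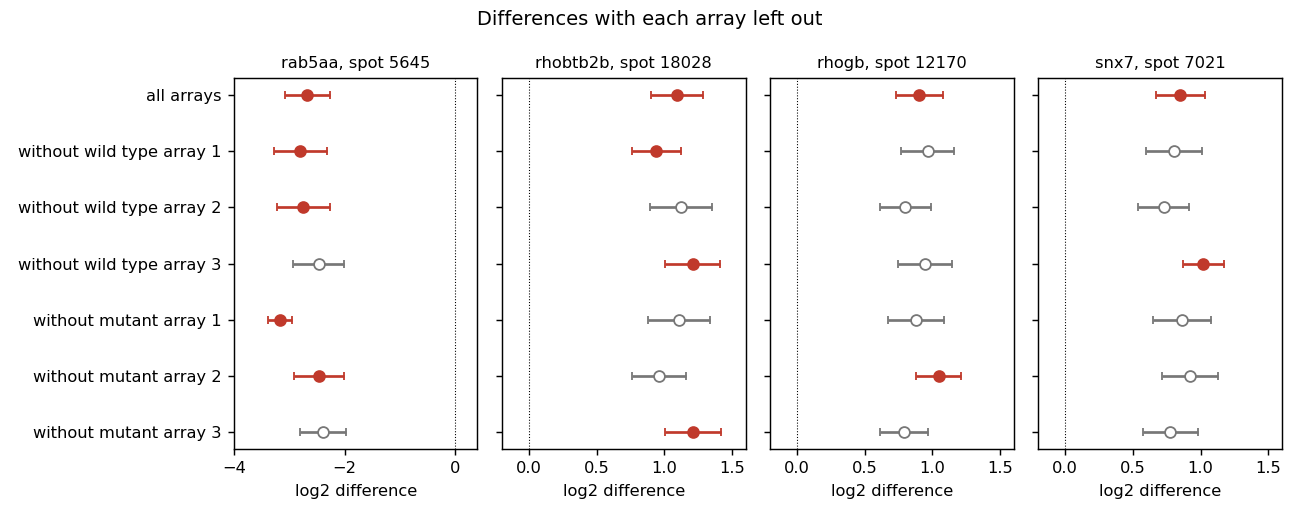
Log2 difference (mutant minus wild type, horizontal axis) with its SE (bars) for the 4 called members, with all arrays and with each array left out in turn. Filled red points passed limma's adjusted p of 0.05 and open grey points did not, and every difference stays on its own side of 0.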

How the data were processed

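Each deposited scanner table holds a raw intensity and a local background intensity per spot, with no background subtraction or normalization recorded, per the file headers. The scanner software is not given in the sources used here. Intensity was divided by 100, as its ceiling makes it likely to be a sum over 100 pixels. The normexp method of limma 3.58.1, run in R 4.3.3, corrected the background (offset 50). Bacterial control spots were dropped, beta-actin spots averaged, and arrays quantile normalized. A block of 400 spots misread on wild-type array 2 was left out (its correlation with the other arrays was 0.241 as placed and 0.981 when shifted by 1 row, against 0.945 or more as placed for every other block), as was 1 unreadable spot. The filter kept 15616 of 15885 probes, those brighter than the 95th percentile of blank spots throughout 1 group or both. The 2-sided test was limma's moderated one (lmFit, eBayes), adjusted by Benjamini-Hochberg over these 15616 probes, with a threshold of 0.05. It was also run on simulated data with known changes and independent noise, which cannot show how it performs on these arrays. Pairs of related probes, each a called member with an uncalled one of its family, were compared by exact permutation in SciPy 1.17.1.

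In the table of values deposited by the authors each entry is a ratio to the probe's median over the arrays, as its values show. How the arrays were scaled before that is unknown. It was used as an alternative. Gene symbols came from the platform annotation. No sequences of the probes were used here. The number of arrays limits the precision.

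Apart from some members and 1 class whose results are not reported here, members were named with full values when called, when among the 10 largest differences without overlap, when first by p in their class, when on a list tied to a cell type or endocytic step, or as another probe of a gene named by any of the first 3 criteria. The members and lists were chosen with earlier results of these data known, and other members given with a value were picked after their values were seen. Alternatives covered normalization, background, filter, the variance model, uneven spots, the misread block, the authors' table, a replicate block and each array left out.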

Additional observations from a re-analysis of the deposited data

How the results depend on the processing

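The count of 4 called members was 4 under cyclic loess, median scaling, an offset of 16, no filter, a filter on all 6 arrays, the authors' value table, an intensity trend in eBayes and uneven spots set to missing, with the same 4 genes each time. It was 3 without background correction and with the misread block kept, where snx7 lost its call, and 5 with that block moved back, where vps26b was added. With 1 array left out it was 1 to 2, and the count of 10 calls among other trafficking genes was 3 to 7. Over all probes tested the count of 747 then became 248 to 599. The median difference of the members ranged from -0.0239 to 0.0407 with 1 array left out, where -0.0239 was the value without mutant array 3, and from -0.00 to 0.02 over the other alternatives. The labels number only the second sample alike in both groups. Arrays of the same number deviated together from their group means (correlations of 0.317, 0.223 and 0.284), a hint from the data and not from the design. Other pairs had correlations of -0.252 to -0.068. Deviations from a group mean cancel within the group, so the values below 0 follow in part from those above it and add no separate evidence. With the number as a replicate block, 1111 of all probes and 4 members were called, the same 4 genes. Of the named members that were tested in the main comparison and not called, none was called under any of the alternatives run. The member vps26b, in the misread block, was not part of that comparison. Brightness close to the blank spots limits what the 7 dimmest members can show.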
